A study of Mus musculus with 8 samples.

Results

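The ErbB family has 4 receptor tyrosine kinases, and this account covers their genes Erbb2, Erbb3, Erbb4 and Egfr together with 3 genes of proteins that restrain them, Errfi1, Lrig1 and Rnf41. The 7 genes were taken by name, out of 22180 genes that had an array probe of their own, and each had exactly 1 such probe. They were measured in primary mammary tumours from FVB mice, all carrying NeuNT, the usual name of an activated form of the rodent ErbB2 gene, and given no treatment. The genotype label of 4 tumours was NeuNT alone, and that of the other 4 was NeuNT/H1074R, which adds a mutation of the PI3K subunit p110α (written H1047R in the title of the series). Each tumour gave 1 array, read as log2 signals. The labels do not give age, the promoter or species of the transgene, or whether tumours came from separate animals, so a p-value reflects only how much these 8 tumours varied. Of 16 luminal epithelial markers 15 were tested, and their mean ran from 8.54 to 9.62 over the tumours. The keratin Krt8 (9.78 to 10.89) and the adhesion molecule Epcam (10.18 to 10.99) varied little, whereas Krt19 (5.37 to 11.52) and the luminal factor Foxa1 (4.94 to 11.74) differed widely between tumours. The hormone receptor Pgr ran from 4.14 to 6.76, with a low median of 4.36.

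ErbB receptors sit in the cell membrane and signal as pairs. ErbB2 binds no ligand of its own and is the preferred partner of the others, whereas ErbB3 binds neuregulins but has a nearly inactive kinase, and its phosphorylated tail is a strong docking site for PI3K. The pair of ErbB2 and ErbB3 is therefore the classical route from this family to PI3K in mammary tumours. EGFR binds EGF-like ligands, and ErbB4 binds neuregulins and is linked to differentiation and lactation in the mammary gland. Errfi1 (also called Mig6) blocks the active kinase dimer, Lrig1 is a membrane protein that promotes receptor breakdown, and Rnf41 (also called Nrdp1) is a ubiquitin ligase that acts on ErbB3.

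Promoter sequence was available for 6 of the 7 genes, all but Erbb3, in the RefSeq table for build GRCm38.p6, as windows from 250 bases before to 50 after an annotated start site. The windows of Erbb2 (chr11:98412234-98412533, plus strand), Erbb4 (chr1:69108010-69108309, minus strand) and the downstream of both Errfi1 start sites (chr4:150854820-150855119, plus strand) are shown, since Erbb2 and Erbb4 varied most between tumours and Errfi1 ran against Erbb4. Capitals mark matches, on either strand, to AGGAAG (an ETS factor motif), GCCNNNGGC (AP-2), GTAAACA (FoxO), TATAAA (the core of a TATA box) or GGGCGG (GC box). Each sequence reads 5′ to 3′ on the strand of its gene.
Erbb2: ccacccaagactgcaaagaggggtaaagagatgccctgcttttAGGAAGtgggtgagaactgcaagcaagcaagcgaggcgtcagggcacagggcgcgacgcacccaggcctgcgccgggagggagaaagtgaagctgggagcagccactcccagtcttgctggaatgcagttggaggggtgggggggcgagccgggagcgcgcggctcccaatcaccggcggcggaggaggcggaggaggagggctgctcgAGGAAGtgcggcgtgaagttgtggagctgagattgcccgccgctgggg
Erbb4: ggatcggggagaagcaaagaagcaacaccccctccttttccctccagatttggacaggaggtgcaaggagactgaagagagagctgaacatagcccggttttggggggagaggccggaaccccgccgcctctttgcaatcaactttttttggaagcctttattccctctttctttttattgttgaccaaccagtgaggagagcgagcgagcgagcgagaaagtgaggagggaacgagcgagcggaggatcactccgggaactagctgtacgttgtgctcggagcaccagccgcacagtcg
Errfi1: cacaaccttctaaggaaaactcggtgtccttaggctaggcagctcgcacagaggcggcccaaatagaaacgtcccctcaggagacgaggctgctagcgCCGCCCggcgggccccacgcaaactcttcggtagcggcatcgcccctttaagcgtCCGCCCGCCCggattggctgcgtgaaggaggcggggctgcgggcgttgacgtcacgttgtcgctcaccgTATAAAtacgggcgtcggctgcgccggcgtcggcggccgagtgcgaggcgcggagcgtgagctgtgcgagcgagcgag
The Erbb2 window held the ETS letters at 2 places, starting at positions −207 and 3 relative to the start site, and 35.4% of the 32851 windows in the table held them at least once. The Errfi1 window held a TATA box from −28 to −23, a motif found in 13.6% of windows, and 3 GC boxes, of which 2 overlap; GC boxes were found in 35.7%. Among the windows not shown, ETS letters also matched in Egfr and at the upstream Errfi1 start site, and GC boxes in Egfr, Lrig1 and Rnf41. None of the 5 motifs matched in the Erbb4 window, and the FoxO letters, found in 3.65% of all windows, matched in none of the windows of the 6 genes. AP-2 letters (16.6% of windows) matched in Lrig1 alone of the 6. These are matches of letters in the mouse genome, and whether NeuNT is expressed from such a promoter is not stated in the labels.

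Erbb2 and Erbb4 differed most from tumour to tumour, and no member separated the genotypes. In limma fitted over 16635 genes, 0 of the 7 members had an adjusted p under 0.05, against 0% of all tested genes (0 genes; 635 genes, or 3.82%, had an unadjusted p under 0.05, and 0 of the 7 members did). Values of the genotypes overlapped for all 7 members, while 2.69% of tested genes had groups that did not overlap. All 7 passed the filter that left out the dimmest 25% of genes, those with a mean under 4.06. Each probe has its own response, so signals were compared between tumours and not between genes.

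**Figure D1:**
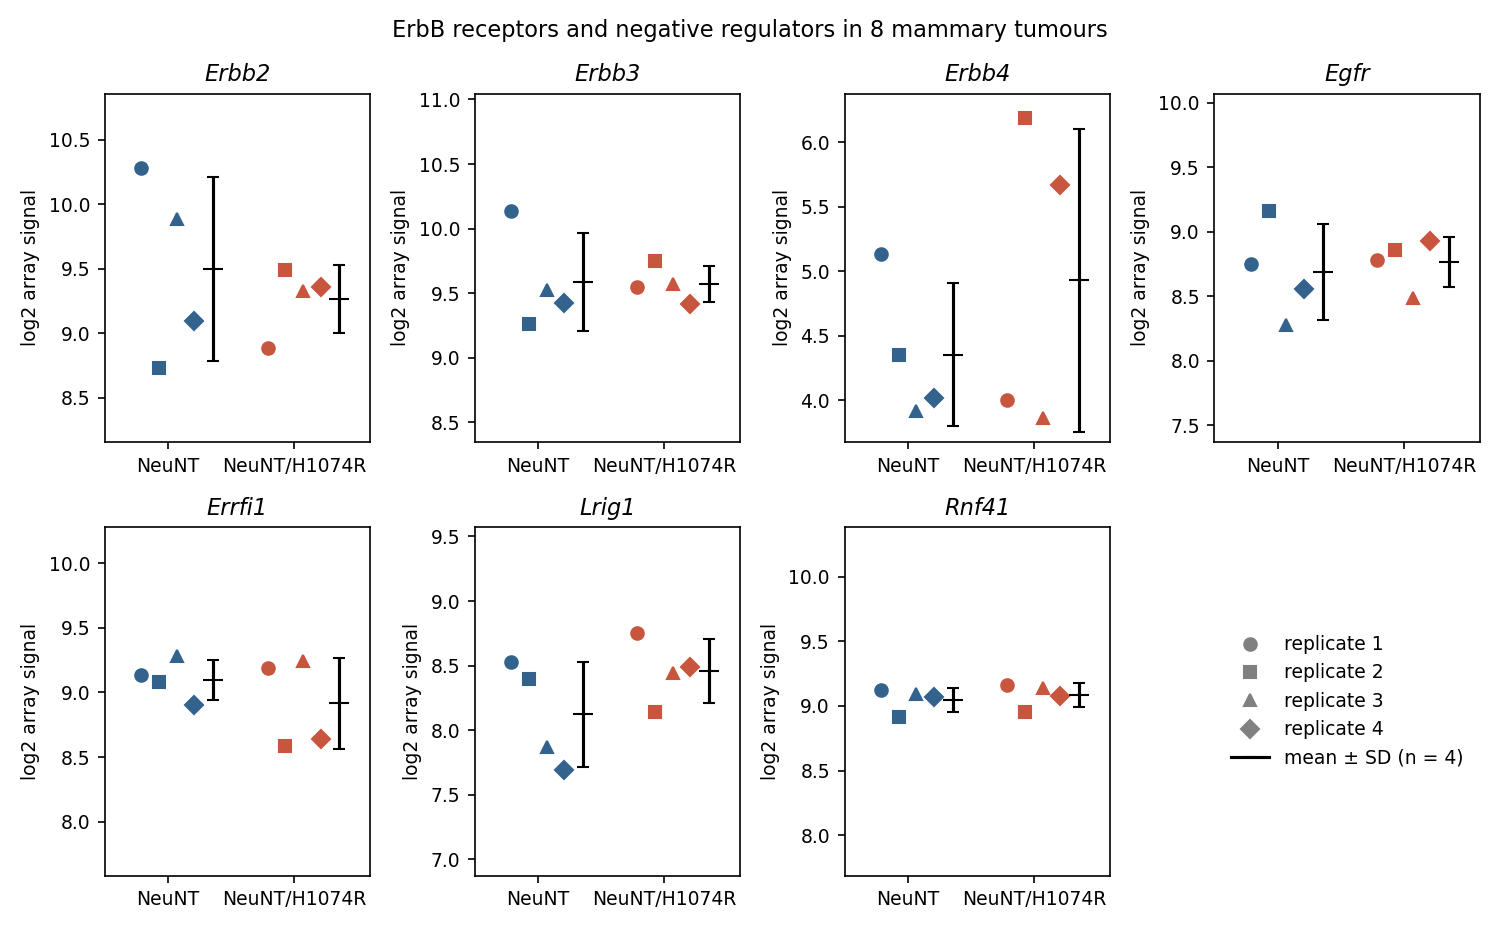
Log2 array signal (vertical axis, spanning the same number of log2 units in every panel) of the 7 genes in 4 NeuNT tumours (blue) and 4 NeuNT/H1074R tumours (red); marker shapes give the replicate, and black bars the mean ± SD (n = 4). Erbb4 ranged most widely, from 3.86 to 6.19, and Rnf41 least, from 8.91 to 9.16.

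Erbb2 stood at 10.28, 8.73, 9.89 and 9.10 in NeuNT replicates 1 to 4 and at 8.89, 9.49, 9.33 and 9.36 in NeuNT/H1074R replicates 1 to 4. The NeuNT tumours therefore held both the 2 highest signals and the lowest, and the NeuNT/H1074R tumours lay between these extremes. The highest tumour exceeded the lowest 2.94-fold. Among tested genes, 85.3% had a smaller SD over the 8 tumours, so Erbb2 was more variable than most. Whether its probe also reads the NeuNT transcript is not known from the labels. The SD was 0.71 within NeuNT and 0.26 within NeuNT/H1074R (n = 4 each), a ratio of 2.73 that 86.7% of tested genes did not reach. The genotype difference was −0.23 with a 95% interval from −0.99 to 0.52, and it turned to 0.027 when NeuNT replicate 1 was left out (limma, adjusted p = 0.988). In a fit without NeuNT/H1074R replicates 1 and 3, the tumours with the highest skeletal muscle markers, it was −0.076 (limma, adjusted p = 0.972); this fit, given for each gene, was chosen after the data had been seen.

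Erbb3, the kinase-poor partner of ErbB2, stood at 10.13, 9.26, 9.52 and 9.42 in NeuNT replicates 1 to 4 and at 9.55, 9.75, 9.57 and 9.41 in NeuNT/H1074R replicates 1 to 4. As for Erbb2, NeuNT replicate 1 was the highest of all tumours and NeuNT replicate 2 the lowest. The remaining 6 tumours lay close together, and the SD was 0.38 in NeuNT against 0.14 in NeuNT/H1074R (n = 4 each). The means of 9.58 and 9.57 gave a difference of −0.013 ± 0.19 (SE), with a 95% interval from −0.45 to 0.42 (limma, adjusted p = 0.997). Leaving out NeuNT replicate 1 turned the sign (0.17), as did leaving out NeuNT/H1074R replicate 4 (0.040) or normalizing by quantiles (0.019). Without both tumours with high muscle markers it was −0.0020.

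Erbb4 gave the widest spread of the 7 genes. Its signals were 5.13, 4.35, 3.92 and 4.02 in NeuNT replicates 1 to 4, and 4.01, 6.19, 3.86 and 5.67 in NeuNT/H1074R replicates 1 to 4. NeuNT/H1074R replicates 2 and 4 and NeuNT replicate 1 were high, and the other 5 tumours were low in both genotypes. In 4 tumours the signal lay below the 4.06 that marks the dimmest genes, so the 5.01-fold span between the extremes is uncertain at its lower end. A smaller SD over the 8 tumours was found for 95.7% of tested genes. The SD was 1.17 within NeuNT/H1074R and 0.55 within NeuNT (n = 4 each), the reverse of the order seen for Erbb2, Erbb3 and Egfr, a contrast that was not tested. The 95% interval of the genotype difference ran from −0.68 to 1.83 around 0.58 (limma, adjusted p = 0.978), so differences of more than 2-fold in favour of NeuNT/H1074R lay within it. The value moved strongly with the tumours included, from 0.16 without NeuNT/H1074R replicate 2 to 0.93 without NeuNT/H1074R replicate 3. Without both NeuNT/H1074R replicates 1 and 3, which leaves the 2 tumours highest in Erbb4, it was 1.57 ± 0.37 (SE; limma, adjusted p = 0.727).

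Egfr stood at 8.75, 9.16, 8.28 and 8.56 in NeuNT replicates 1 to 4 and at 8.78, 8.86, 8.49 and 8.93 in NeuNT/H1074R replicates 1 to 4. NeuNT replicate 2, the tumour lowest in Erbb2 and Erbb3, was the highest in Egfr, and NeuNT replicate 3, second highest in Erbb2, was the lowest. The means were 8.69 ± 0.37 and 8.76 ± 0.19 (SD, n = 4 each), a difference of 0.08 with a 95% interval from −0.38 to 0.53 (limma, adjusted p = 0.988). Without NeuNT replicate 3 the sign turned, to −0.061, and without both tumours with high muscle markers the difference was 0.21.

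Errfi1, the inhibitor of the active kinase dimer, stood at 9.14, 9.08, 9.28 and 8.90 in NeuNT replicates 1 to 4 and at 9.19, 8.58, 9.24 and 8.64 in NeuNT/H1074R replicates 1 to 4. The 2 lowest tumours, NeuNT/H1074R replicates 2 and 4, were those highest in Erbb4, and the other 6 lay between 8.90 and 9.28. The difference of −0.19 ± 0.18 (SE) had a 95% interval from −0.61 to 0.24 (limma, adjusted p = 0.978). It was −0.49 without both tumours with high muscle markers, which leaves the 2 tumours lowest in Errfi1 (limma, adjusted p = 0.727).

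Lrig1, which promotes receptor breakdown, had the smallest p of the 7 genes. It stood at 8.53, 8.40, 7.87 and 7.69 in NeuNT replicates 1 to 4 and at 8.75, 8.14, 8.44 and 8.49 in NeuNT/H1074R replicates 1 to 4. NeuNT replicates 3 and 4 were the lowest tumours and NeuNT/H1074R replicate 1 the highest, but NeuNT replicate 1 was above 3 of the NeuNT/H1074R tumours. The means of 8.12 ± 0.41 and 8.46 ± 0.25 (SD, n = 4 each) differed by 0.34 ± 0.22 (SE), with a 95% interval from −0.17 to 0.84 and an unadjusted p of 0.165 (limma, adjusted p = 0.978; exact two-sided permutation p = 0.229, where 0.0286 is the smallest possible). The difference was positive whichever tumour was left out, from 0.19 without NeuNT replicate 4 to 0.47 without NeuNT replicate 1, and stood at 0.20 without both tumours with high muscle markers. Skeletal muscle markers, of which 11 of 12 were tested, had Pearson's r = 0.57 with Lrig1 (exact permutation p = 0.126, adjusted p = 0.826). Spearman's rho was 0.33 (exact permutation p = 0.428, adjusted p = 0.977), and r was 0.18 without NeuNT/H1074R replicates 1 and 3. The mean of these markers ran from 4.84 to 5.44 in NeuNT and from 5.11 to 7.04 in NeuNT/H1074R. NeuNT/H1074R replicate 1 was the highest both for that mean and for Lrig1. The part of muscle in the Lrig1 values was not tested beyond these correlations and the fit without both tumours. In whole tumours, fewer cells of a type and less RNA per cell cannot be told apart.

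Rnf41, the ubiquitin ligase for ErbB3, was nearly constant. It stood at 9.12, 8.91, 9.09 and 9.07 in NeuNT replicates 1 to 4 and at 9.16, 8.95, 9.14 and 9.08 in NeuNT/H1074R replicates 1 to 4. The whole range was 0.25, and 1.87% of tested genes had a smaller SD over the 8 tumours. The difference of 0.04 had a 95% interval from −0.21 to 0.28 (limma, adjusted p = 0.988), the narrowest of the 7, and turned to −0.0097 without NeuNT replicate 2 and to −0.032 without both tumours with high muscle markers. Rnf41 and Erbb3 share chromosome 10 in the RefSeq annotation, with 13 annotated genes between them.

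**Figure D2:**
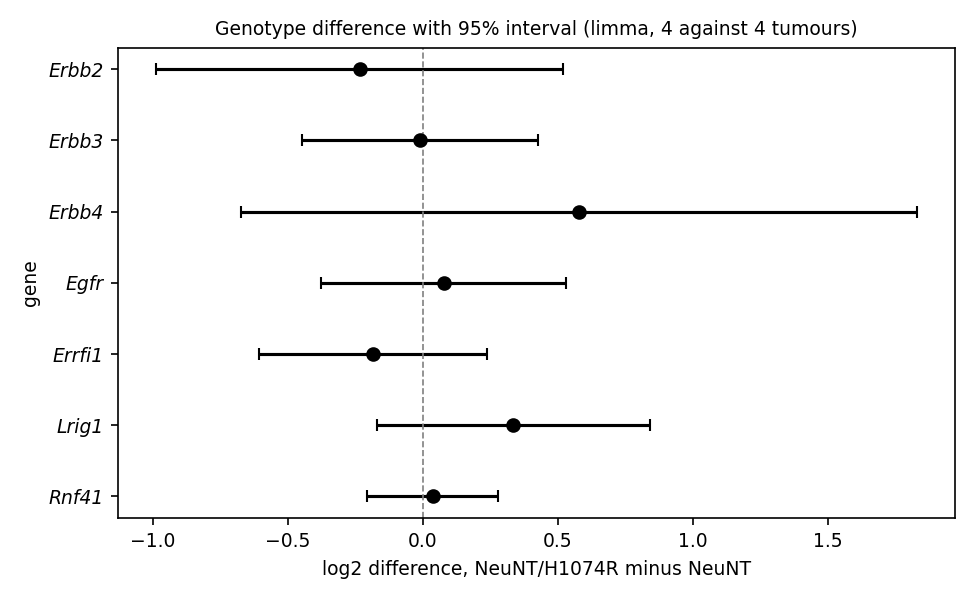
Log2 difference (horizontal axis, NeuNT/H1074R minus NeuNT) of each of the 7 genes (vertical axis), with its 95% interval from limma over 4 against 4 tumours. All 7 intervals include 0, and that of Erbb4 is the widest, from −0.68 to 1.83.

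Co-variation was measured for the 21 pairs of members over the 8 tumours. At an unadjusted exact p under 0.05, 2 pairs stood out, and 0 of 21 passed after adjustment over the pairs. Erbb2 and Erbb3 varied in the same direction, with Pearson's r = 0.80 (exact permutation p = 0.0162, adjusted p = 0.171) and Spearman's rho = 0.62 (exact permutation p = 0.115, adjusted p = 0.402). The relation rested on its extremes, since r was 0.21 without NeuNT replicates 1 and 2, the tumours farthest from the median of Erbb2, and 0.53 without NeuNT replicate 1 alone. Taken as deviations from the genotype means, r was 0.82, but it was 0.88 within NeuNT and 0.32 within NeuNT/H1074R (n = 4 each). An r with Erbb2 at least as far from 0 as that of Erbb3 was found for 2.61% of the tested genes.

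Erbb4 and Errfi1 ran in opposite directions, with r = −0.83 (exact permutation p = 0.0138, adjusted p = 0.171) and rho = −0.88 (exact permutation p = 0.00724, adjusted p = 0.152). Leaving out any 1 tumour kept r between −0.93 and −0.71. Pearson's r rested on NeuNT/H1074R replicates 2 and 4 together, which combined the highest Erbb4 with the lowest Errfi1. Without them r was −0.16, and rho was not recomputed. NeuNT replicate 1, next in Erbb4 at 5.13, had an Errfi1 signal of 9.14, in the range of the low-Erbb4 tumours. As deviations from the genotype means the pair had r = −0.81, but r was 0.06 within NeuNT and −0.99 within NeuNT/H1074R (n = 4 each). An r with Erbb4 as far from 0 was found for 4.07% of the tested genes. The remaining 19 pairs had r between −0.60 (Egfr with Rnf41) and 0.50 (Egfr with Lrig1), with a smallest exact permutation p of 0.124 (adjusted p = 0.699). Rnf41 and Erbb3, the ligase and its target receptor, had r = 0.32 (exact permutation p = 0.443, adjusted p = 0.784; rho = 0.48, exact permutation p = 0.243, adjusted p = 0.567) and r = −0.51 without the tumours farthest from the median of Erbb3.

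**Figure D3:**
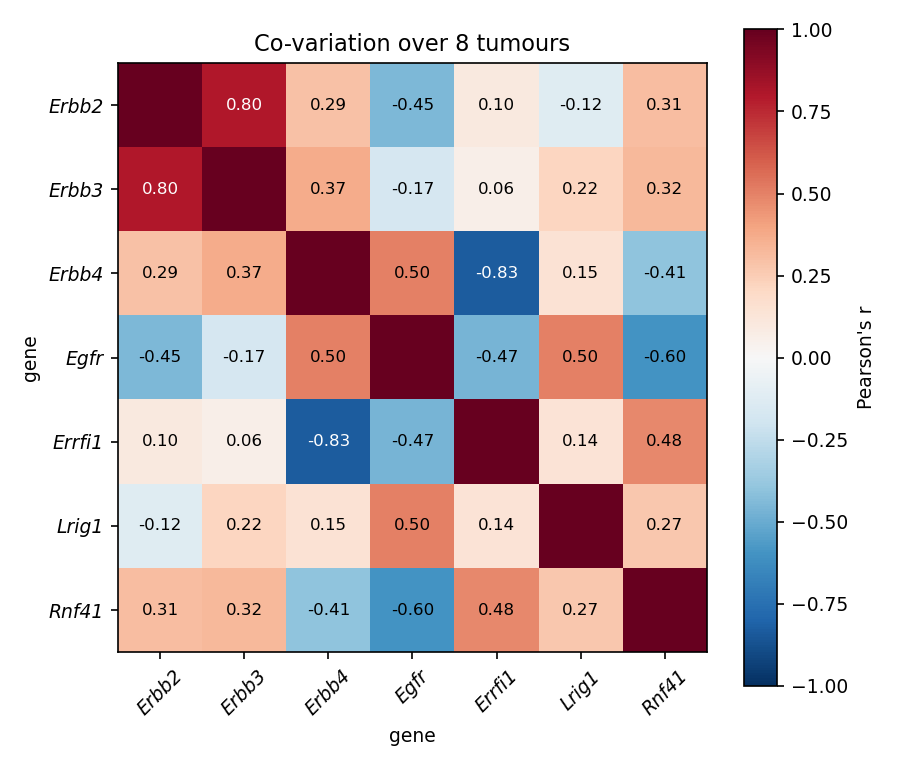
Pearson's r over the 8 tumours for each pair of the 7 genes (both axes), from −1 (blue) to 1 (red). The strongest pairs are Erbb4 with Errfi1 (−0.83) and Erbb2 with Erbb3 (0.80), and 0 of the 21 pairs passed after adjustment.

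Markers of 8 cell types or states, with the members left out, were set beside the receptors, and 0 of the 56 pairs of a member with a marker list passed (smallest adjusted p = 0.826 by exact permutation of Pearson's r), with 1 pair at an unadjusted p under 0.05. That pair was Erbb2 with the basal and myoepithelial markers, of which 11 of 12 were tested, at r = −0.78 (exact permutation p = 0.0200, adjusted p = 0.826) and rho = −0.81 (exact permutation p = 0.0218, adjusted p = 0.856). The correlation was −0.83 for deviations from the genotype means and −0.77 without the tumours farthest from the median of the list, NeuNT replicate 2 and NeuNT/H1074R replicate 3. By ranks alone, Erbb2 was also lower where the squamous and hair or the skeletal muscle markers were higher (rho = −0.74 for both, exact permutation p = 0.0458, adjusted p = 0.856), with r = −0.48 and −0.50 (exact permutation p = 0.237 and 0.196, adjusted p = 0.826). Without the tumours farthest from each list's median, r was −0.48 and −0.82. For muscle these were NeuNT/H1074R replicates 1 and 3 (means 7.04 and 6.76). The muscle means of the remaining tumours spanned only 4.84 to 5.44, so the −0.82 covers a narrow range of low signals. The basal means fell into separate clusters, 6.63 to 6.73 in 4 tumours and 7.87 to 9.33 in the other 4, too few in either for a correlation within it. The low cluster held NeuNT replicates 1 and 3 and NeuNT/H1074R replicates 2 and 4, with Erbb2 from 9.36 to 10.28, and the high cluster held the remaining tumours, with Erbb2 from 8.73 to 9.33. Both clusters contained both genotypes; they were seen in the data, and their Erbb2 ranges are a description. NeuNT replicate 2, lowest in Erbb2, Erbb3 and Rnf41, had the highest mean of basal markers (9.33) and also of luminal (9.62), fibroblast (8.81) and endothelial (7.29) markers. NeuNT replicate 4, lowest in Lrig1, had the highest mean of squamous and hair markers (9.03, against 4.66 to 6.62 elsewhere). The part of cell composition in the receptor signals was not tested.

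**Figure D4:**
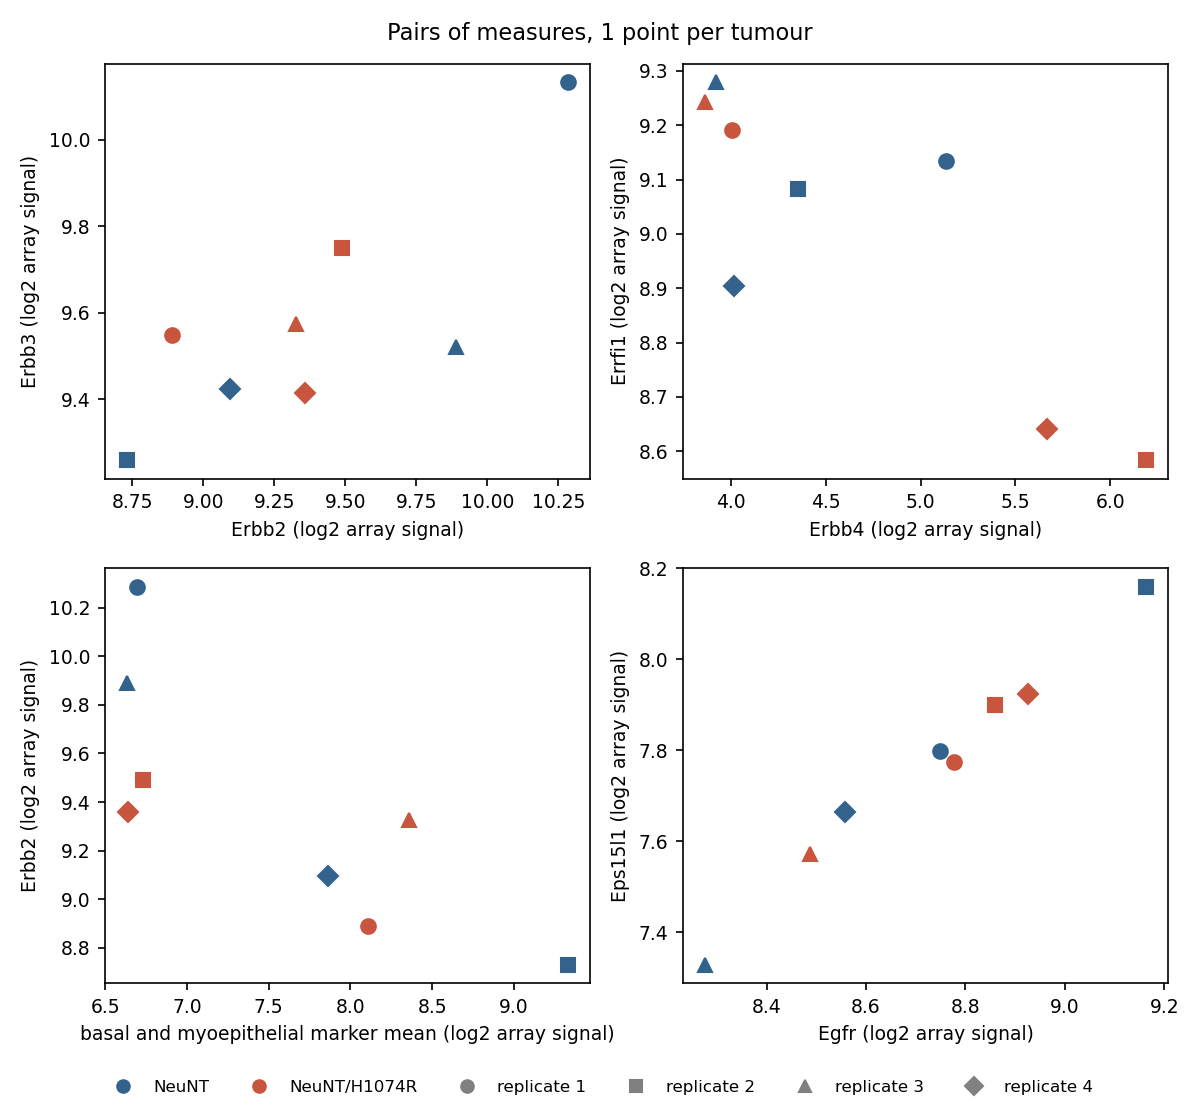
Log2 array signals of pairs of measures, 1 point per tumour, NeuNT in blue and NeuNT/H1074R in red, marker shapes giving the replicate: Erbb3 against Erbb2, Errfi1 against Erbb4, Erbb2 against the mean of 11 basal and myoepithelial markers, and Eps15l1 against Egfr. NeuNT replicate 1 sets the upper end of Erbb2 and Erbb3, and NeuNT/H1074R replicates 2 and 4 combine high Erbb4 (6.19 and 5.67) with low Errfi1 (8.58 and 8.64).

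The genes whose pattern over the 8 tumours was most like that of each receptor were ranked by Pearson's r among 16634 tested genes, as a description. For Egfr these were Eps15l1 (r = 0.99), the transcription factor gene Tcf12 (0.99), the phosphoinositide phosphatase gene Sacm1l (0.98) and the death receptor gene Fas (0.98). Eps15l1, which encodes an endocytic adaptor related to the EGFR substrate Eps15, stood at 7.80, 8.16, 7.33 and 7.66 in NeuNT replicates 1 to 4 and at 7.78, 7.90, 7.57 and 7.92 in NeuNT/H1074R replicates 1 to 4. It followed Egfr through all 8 tumours, apart from the order of NeuNT replicate 1 and NeuNT/H1074R replicate 1, which were close in both genes. For Erbb4 the nearest were Serpina1b (0.99), Zfp738 (0.98), Colca2 (0.98) and Dock3 (0.97). Serpina1b ranged only from 5.27 to 5.62, and Zfp738 (4.46 to 5.42) and Dock3 (3.90 to 5.18) had low signals. Colca2 was high in the same 3 tumours as Erbb4. It stood at 8.54 in NeuNT replicate 1 and at 9.54 and 9.50 in NeuNT/H1074R replicates 2 and 4, against 6.47 to 7.28 elsewhere. For Erbb2 they were Sft2d2 (0.97), Cdc123, Arhgef38 and Kdm7a (0.95 each), and for Erbb3 Nudt17, Aup1 and Hyls1 (0.94 each) and Ints7 (0.93). With 8 tumours high values are common over so many genes: r was at least 0.9 for 147 genes with Erbb4, 110 with Egfr, 39 with Erbb2 and 25 with Erbb3.

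Genes around the receptors were counted in 5 lists, and 0 of the 88 tested genes passed in limma, with 3 at an unadjusted p under 0.05, a share no higher than the 3.82% of all tested genes. Of 27 adaptors and signal transducers, 11 had a higher and 16 a lower mean in NeuNT/H1074R, with a median difference of −0.03 against −0.0027 over all tested genes. Plcg2, a phospholipase that cleaves the same lipid PI3K acts on, stood at 7.67, 7.72, 7.54 and 7.56 in NeuNT replicates 1 to 4 and at 8.89, 8.05, 8.37 and 8.34 in NeuNT/H1074R replicates 1 to 4. It was the 1 gene of the 88 whose groups did not overlap, where 2.69% of all tested genes had such groups, and the 95% interval of its difference of 0.79 ran from 0.39 to 1.20 (limma, adjusted p = 0.978), so it missed the threshold. Grb7, the adaptor whose gene lies beside Erbb2, departed from it in NeuNT replicate 1, highest in Erbb2, where Grb7 was only 8.93. NeuNT replicate 2 was the lowest tumour in both genes, with Grb7 at 8.48, against 10.99 to 12.06 in the other tumours. NeuNT replicate 3, second highest in Erbb2, had the highest Grb7 (12.06). The correlation of Grb7 with Erbb2 was not tested. Crkl had a difference of −0.22 (−0.26 to −0.14 with single tumours left out) and Plcg1 of 0.19 (0.11 to 0.24). Such ranges with single tumours left out are narrower than 95% intervals and do not replace them. Of the genes named from the 5 lists, only Plcg2, Cdc37 and Egf had a 95% interval that left out 0.

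Of 25 genes for receptor ubiquitination, traffic and chaperoning, 8 had a higher and 17 a lower mean, with a median of −0.03. Cdc37, the co-chaperone that brings kinases to Hsp90, had a difference of 0.40 ± 0.17 (SE), from 7.79 to 8.37 in NeuNT and 8.36 to 8.74 in NeuNT/H1074R (limma, unadjusted p = 0.0418, adjusted p = 0.978). With single tumours left out, the endosomal GTPase gene Rab5a (−0.24) ranged from −0.32 to −0.13, the sorting adaptor Stam2 (−0.17) from −0.23 to −0.062 and the chaperone Hsp90b1 (−0.16) from −0.25 to −0.072. The 15 other receptor-level negative regulators split 8 higher and 7 lower, with a median of 0.04. Lrig3, a relative of Lrig1, had a difference of 0.37 ± 0.21 (SE), with 6.88, 7.22, 6.33 and 6.38 in NeuNT replicates 1 to 4 and 7.01 to 7.20 in NeuNT/H1074R. As for Lrig1, NeuNT replicates 3 and 4 were the lowest. The phosphatase genes moved with single tumours: Ptpn2 (0.23) ranged from 0.096 to 0.40 as each was left out, Ptpn12 (−0.18), with 9.39 in NeuNT/H1074R replicate 1 and 8.94 to 8.99 in the rest of that group, from −0.29 to −0.053, and Ptpn18 (0.12) from 0.024 to 0.22.

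Among 11 membrane partners and sheddases, 4 had a higher and 7 a lower mean, with a median of −0.04. With single tumours left out, Erbin (0.31), a scaffold that binds ErbB2, ranged from 0.18 to 0.42, the mucin Muc1 (0.43) from 0.15 to 0.64 and the sheddase Adam17 (0.13) from 0.059 to 0.20. The sheddase inhibitor Timp3 stood at −0.75 (−1.06 to −0.12), with 11.30 in NeuNT replicate 2 and 7.50 to 9.56 elsewhere. Of 10 ligand genes, 3 were higher and 7 lower in mean, with a median of −0.12. Egf had a difference of 0.43 ± 0.16 (SE), from low signals of 4.30 to 4.59 in NeuNT and 4.44 to 5.18 in NeuNT/H1074R (limma, unadjusted p = 0.0258, adjusted p = 0.978). Nrg3 stood at 0.20 (0.10 to 0.33 with single tumours left out), Ereg at −0.62 (−0.90 to −0.022), with 7.71 in NeuNT replicate 4 and 5.06 to 5.60 elsewhere, and the neuregulin Nrg1 at −0.40, which turned to 0.06 without NeuNT replicate 2.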

How the data were processed

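Total RNA was labelled with an Affymetrix whole-transcript kit, per the labels' protocols. The authors deposited log2 signals for 41345 probes in 8 tumours; per the submitters' processing notes they used the Affymetrix Expression Console and Transcriptome Analysis Console, and no source used here states the normalization. Array medians ran from 4.81 to 4.87, so values were used as deposited. Arrays carry no read depth, and their number limits the precision. The platform annotation gave 23521 probes exactly 1 symbol; a gene was read from its probe of highest mean. The lower 25% of genes by mean were left out. Genotypes were compared with limma 3.58.1 in R 4.3.3 (lmFit, eBayes with a trend), Benjamini-Hochberg adjusted over 16635 genes, threshold 0.05. Correlations used exact two-sided permutations of tumours, adjusted over 21 and 56 pairs. Members, lists and tests were chosen with earlier results of these data known. Named genes were the members, the 4 genes most like each receptor (predicted and clone names, microRNA, small nucleolar and olfactory or vomeronasal receptor genes left out) and up to 4 genes of smallest p per list. The scripts were tested on simulated data. Alternatives left out tumours, renormalized or centred arrays, changed the filter, probe rule, variance model, array weights or test, and for correlations used ranks or genotype deviations. Plots used matplotlib 3.10.9.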

Additional observations from a re-analysis of the deposited data

Results flagged for a closer look

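Chance flags about 1 in 20 groups of 4 tumours, and 5 of the 70 groups examined held a tumour far from the other 3; none was a value of the 7 members. Within NeuNT/H1074R, Hsp90b1 was low in replicate 3 (11.27), Ptpn12 was high in replicate 1 (9.39) and Nrg1 was low in replicate 1 (5.72). Within NeuNT, Nrg3 was low in replicate 1 (4.45) and the squamous and hair markers were high in replicate 4 (9.03).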

How the results depend on the processing

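Of 118 alternative values of the 7 genotype differences, 111 kept their sign and none passed the threshold, and the count of genes past it was 0 under every alternative run. Some of these signs were fixed in advance. Changes to the filter, probe rule, intensity trend or test could not alter a difference, since each member had exactly 1 probe. Only leaving out tumours, rescaling arrays or weighting them could turn a sign. With each tumour left out in turn, the sign turned in Erbb2 (−0.49 to 0.027; NeuNT replicate 1), Erbb3 (−0.12 to 0.17; NeuNT replicate 1 or NeuNT/H1074R replicate 4), Egfr (−0.061 to 0.24; NeuNT replicate 3) and Rnf41 (−0.0097 to 0.079; NeuNT replicate 2). It also turned for Erbb3 with quantile normalization (0.019) and for Rnf41 without both tumours with high muscle markers (−0.032). Beyond the tumours left out, the cause was not tested. Erbb4 has no value with the lower 50% of genes left out, since it falls below that limit. The counts of 0 correlated pairs held under every alternative for which they were recomputed (ranks, other scalings, mean of probes, each tumour left out). For the 21 member pairs the mean of probes could change nothing, since each member had exactly 1 probe. No paired analysis was possible, because the labels give tumour numbers that the genotypes do not share. Replicate numbers used here follow the order of the samples in each genotype, so equal numbers do not pair tumours. Signals near the dim limit, as for Erbb4 and Egf, limit the sizes of their differences.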
